A study of Mus musculus with 3 samples.

Results

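The adherens junction and endothelial contact genes examined in brain vessels were 10 of the 29920 genes with a row in the deposited count tables. They were taken by name, as 2 cadherins (Cdh5 and Cdh2), 4 catenins (Ctnnb1, Jup, Ctnna1 and Ctnnd1), the nectin Nectin2 with its partner Afdn, and the endothelial surface proteins Pecam1 and Cd34. RNA sequencing had been performed on vessels isolated from brains of mice aged 3 months, with 1 library for each of 3 groups and the pooled vessels of 3 male mice in each library. The groups were C57BL6 WT, C57BL6-BALB/c WT and Cx30-/-, the last with a deletion of Gjb6, the gene of the gap junction protein Connexin 30, in every cell of the body. The sample labels place the Cx30-/- mice on a C57BL6 background, whereas the methods of the study give a mixed C57BL6/Balbc background. With 1 library per group there was no spread between replicates, no test across genes was made, and the 95% intervals below cover the sampling of reads only.

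Adherens junctions hold neighboring cells together through cadherins, whose outer parts bind each other and whose tails bind catenins that lead to the actin cytoskeleton. In endothelial cells the main cadherin is VE-cadherin, which is needed for an intact vessel wall, and β-catenin also acts in the nucleus in the Wnt pathway that sets up the blood-brain barrier. Nectins form another adhesion system that is tied to actin by afadin.

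β-catenin (Ctnnb1) and plakoglobin (Jup) are related catenins that take the same place on a cadherin tail, so that reads from one might be counted for the other. Their coding sequences were 65.8% identical over 2357 aligned positions (transcripts of GENCODE M21). The longest identical run between the 2 transcripts was 20 bases, and no window of 50 bases, the length of the reads, had fewer than 5 differences. A pair of windows with 5 differences lies in exon 5 of Ctnnb1 (chr9:120951423-120951472, plus strand, GRCm38) and in exon 4 of Jup (chr11:100383040-100383089, minus strand), with the differing bases in capitals:
Ctnnb1: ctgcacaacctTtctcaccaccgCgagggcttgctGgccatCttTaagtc
Jup: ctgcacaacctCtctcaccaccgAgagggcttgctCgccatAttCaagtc
These are coding bases, and they show how close the genes come to each other. For Cdh5 and Cdh2 the coding sequences were 46.7% identical, the longest identical run was 12 bases and the closest windows of 50 bases had 9 differences.

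Windows upstream of the transcription start were held by the RefSeq table of promoters (GRCm38.p6) for 6 of the 10 genes, Ctnnb1, Ctnnd1, Jup, Cd34, Nectin2 and Afdn. The window used was the one nearest to the start of the transcript that was counted, since the table held 2 for Ctnnb1 and 2 for Ctnnd1. That of Ctnnb1 ends just before the start of this transcript and lies inside the span of the gene, which begins further upstream. The 250 bases before the start are shown for Ctnnb1 and Jup, for Cd34 as a gene typical of endothelium and for Afdn as one that differed from these in its direction. Capitals mark 2 motifs that were searched on both strands, GGGCGG (the GC box, CCGCCC on the other strand) and CCGGAA (a core of sites for ETS factors, TTCCGG on the other strand). The lines give Ctnnb1 (chr9:120933150-120933399, plus strand), Jup (chr11:100397791-100398040, minus strand), Cd34 (chr1:194938571-194938820, plus strand) and Afdn (chr17:13760291-13760540, plus strand).
Ctnnb1: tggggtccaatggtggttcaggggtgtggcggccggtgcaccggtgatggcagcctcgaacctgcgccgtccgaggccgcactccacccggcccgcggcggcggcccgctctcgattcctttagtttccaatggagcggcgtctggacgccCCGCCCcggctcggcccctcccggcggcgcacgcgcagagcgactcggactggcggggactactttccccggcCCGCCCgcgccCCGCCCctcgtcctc
Jup: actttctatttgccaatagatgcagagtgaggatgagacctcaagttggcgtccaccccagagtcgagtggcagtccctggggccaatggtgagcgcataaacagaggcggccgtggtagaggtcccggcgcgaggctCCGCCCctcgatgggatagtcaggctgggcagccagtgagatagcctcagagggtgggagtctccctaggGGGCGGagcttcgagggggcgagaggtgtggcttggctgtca
Cd34: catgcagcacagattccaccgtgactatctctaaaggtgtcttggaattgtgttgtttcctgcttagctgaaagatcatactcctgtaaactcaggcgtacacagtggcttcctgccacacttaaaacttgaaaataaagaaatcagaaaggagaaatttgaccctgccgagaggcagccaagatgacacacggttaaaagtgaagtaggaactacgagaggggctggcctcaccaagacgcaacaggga
Afdn: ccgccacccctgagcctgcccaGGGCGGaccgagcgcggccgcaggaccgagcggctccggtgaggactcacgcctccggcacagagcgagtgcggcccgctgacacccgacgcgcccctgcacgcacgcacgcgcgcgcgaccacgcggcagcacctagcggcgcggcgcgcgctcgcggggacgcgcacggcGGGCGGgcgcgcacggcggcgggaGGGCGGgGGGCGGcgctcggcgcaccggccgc
The GC box was found 3 times in the window of Ctnnb1, 2 times in that of Jup and 4 times in that of Afdn, but not in that of Cd34. Of all 32851 windows of the table, 32.7% held it, and so did 4 of the 6 windows of these genes. The ETS core was found in 1 of the 6, that of Nectin2, and in 3952 of all 32851 windows. The share of G and C was 74.8% for Ctnnb1, 62% for Jup, 46.4% for Cd34 and 82.8% for Afdn, with a median of 52.4% over all windows. These matches describe the letters only.

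The deposited counts summed to between 50375426 and 60725557 per library, but reads shared by transcripts of a gene enter these sums more than once. The library totals recovered from the authors' fractions were 24830975 for C57BL6 WT, 21170766 for C57BL6-BALB/c WT and 20654144 for Cx30-/-. Normalized counts are counts scaled by a size factor per library, the median ratio to the geometric mean over libraries. The size factor was lowest for C57BL6-BALB/c WT, with 0.926 against 0.953 for Cx30-/-. Gjb6 had 2899 counts in C57BL6 WT, 2246 in C57BL6-BALB/c WT and 96 in Cx30-/- vessels. Markers of other cells of the brain were present in every library next to those of vessels, and no listed marker gene of any cell type was at 0 counts in any of them.

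Levels of different genes can be compared only per length, and are given as the mean over the 3 libraries of normalized counts per kilobase of transcript. Ctnnb1 was the highest of the 10 genes, with 5257, followed by Cd34 (3461), Pecam1 (3356), Cdh5 (2041) and Ctnna1 (1642). Ctnnd1 had 843, Afdn 711 and Jup 662, and the order ended with Nectin2 (124) and Cdh2 (94.6). The range over the libraries of Ctnnb1 did not meet that of Cd34, and the ranges of Ctnna1 and Ctnnd1, of Ctnnd1 and Afdn, and of Jup and Nectin2 were also apart. The ranges of the other neighbors overlapped over the libraries, although Cdh5 was below Pecam1 and above Ctnna1 within each library. Ctnnb1, Cdh5, Ctnna1 and Ctnnd1 held the same places in each of the 3 libraries, while Pecam1 with Cd34, Jup with Afdn, and Nectin2 with Cdh2 changed places.

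**Figure D1:**
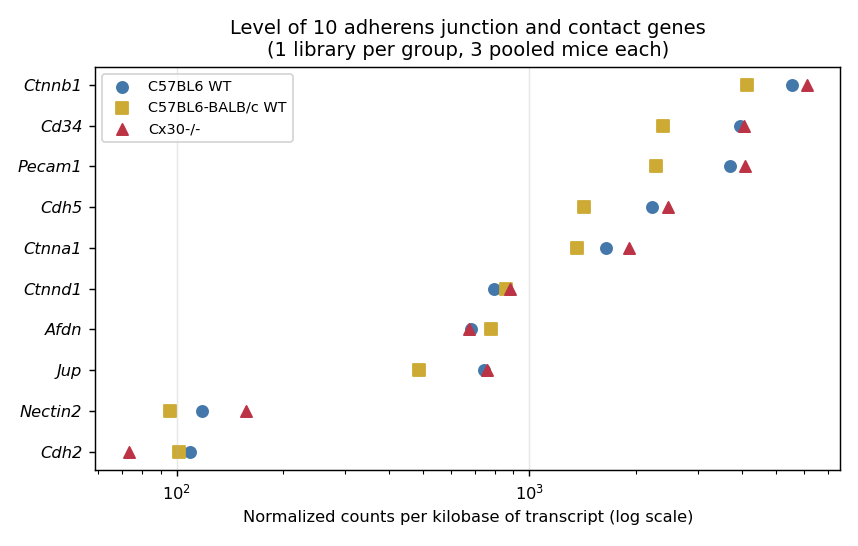
Level of each gene (rows) in normalized counts per kilobase of transcript (horizontal axis, log scale), with 1 point for each library and no error bar, since each group is 1 library of 3 pooled mice. In the C57BL6-BALB/c WT library the levels run from 95.6 for Nectin2 to 4135 for Ctnnb1.

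Cdh5, encoding VE-cadherin (ENSMUSG00000031871, chromosome 8 of GRCm38 from 104101625 to 104144511, plus strand), had a level of 8703 in C57BL6 WT, 5599 in C57BL6-BALB/c WT and 9647 in Cx30-/- vessels in normalized counts, from 9967, 5184 and 9196 counts. The C57BL6-BALB/c WT library was thus the low one, and the other two lay close together. Cx30-/- was 1.11-fold of C57BL6 WT (log2 ratio 0.15, 95% interval 0.11 to 0.19) and 1.72-fold of C57BL6-BALB/c WT (0.78, 0.74 to 0.83). The 2 WT libraries differed by more than Cx30-/- and C57BL6 WT did, with a log2 ratio of -0.64 (-0.68 to -0.59) for C57BL6-BALB/c to C57BL6. In all 3 libraries at least 99.8% of the bases of the Cdh5 transcript were covered by reads.

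Cdh2, encoding N-cadherin, the cadherin of neurons, astrocytes and mural cells that endothelial cells also carry (ENSMUSG00000024304, chromosome 18 from 16588877 to 16809246, minus strand), reached 529 normalized counts in the C57BL6 WT library, 490.4 in C57BL6-BALB/c WT and 355 in Cx30-/- vessels, from 606, 454 and 338 counts. Here Cx30-/- was the low library and the 2 WT libraries were not told apart by read sampling (log2 ratio -0.11, -0.29 to 0.07). The log2 ratio of Cx30-/- was -0.58 to C57BL6 WT (-0.77 to -0.38) and -0.47 to C57BL6-BALB/c WT (-0.68 to -0.26), the lowest of the 10 genes in both comparisons. Neuron markers moved the same way: 7 of 8 were lower in Cx30-/- than in both WT libraries, and their summed normalized counts were 40195, 48542 and 28143 in the same order of libraries. For astrocytes, 3 of 8 markers were lower than in both, where 36.6% of all genes were, and 2 were higher. Their sums were 44154, 42642 and 36295. For mural cells, none (0) of 10 was lower than in both and 3 were higher, where 37.1% of all genes were. For oligodendrocytes, 4 of 6 markers were lower than in both and none (0) was higher. The part of these cells in the Cdh2 value was not tested. In these bulk libraries, fewer cells of a type and less RNA per cell cannot be told apart. Reads covered 58.3 to 65.9% of the bases of the Cdh2 transcript, the least of the 10.

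Within a library, a ratio of 2 genes does not depend on the scaling between libraries. Per kilobase, Cdh5 was 20.4-fold of Cdh2 in C57BL6 WT, 14.1-fold in C57BL6-BALB/c WT and 33.7-fold in Cx30-/- vessels. The highest of these ratios was 2.38-fold of the lowest.

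Among the catenins, Ctnnb1 (ENSMUSG00000006932, chromosome 9 from 120929216 to 120960507, plus strand), whose product binds the cadherin tail, reached 20055 normalized counts in the C57BL6 WT library, 14982 in C57BL6-BALB/c WT and 22100.4 in Cx30-/- vessels. The C57BL6-BALB/c WT library was the lowest, as for Cdh5. The log2 ratio of Cx30-/- was 0.14 to C57BL6 WT (0.11 to 0.17) and 0.56 to C57BL6-BALB/c WT (0.53 to 0.59). Of its 3623 bases, 759 overlap exons of Ulk4 on the other strand, and the libraries did not keep the strand. Ulk4 had between 266 and 471 counts in its own row against 13871 to 22967 for Ctnnb1.

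Jup, whose product plakoglobin replaces β-catenin at some junctions and also sits in desmosomes (ENSMUSG00000001552, chromosome 11 from 100368958 to 100397763, minus strand), had 2378, 1563 and 2425 normalized counts in C57BL6 WT, C57BL6-BALB/c WT and Cx30-/- vessels. Cx30-/- and C57BL6 WT were not told apart by read sampling (log2 ratio 0.03, -0.05 to 0.11), and both were above C57BL6-BALB/c WT, Cx30-/- by a log2 ratio of 0.63 (0.54 to 0.73). In every library Ctnnb1 was far above Jup, by 7.46-fold, 8.48-fold and 8.06-fold per kilobase. This ratio of mRNA levels changed by 1.14-fold at most, and the share of the 2 proteins at junctions was not measured here.

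Ctnna1, encoding α-catenin, which links β-catenin to actin (ENSMUSG00000037815, chromosome 18 from 35118859 to 35254779, plus strand), was at 6062, 5022 and 7020.25 normalized counts, respectively. All 3 libraries differed by more than read sampling, with Cx30-/- highest and C57BL6-BALB/c WT lowest. Its log2 ratios were 0.21 to C57BL6 WT (0.16 to 0.26) and 0.48 to C57BL6-BALB/c WT (0.43 to 0.54).

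Ctnnd1, encoding p120-catenin, which keeps cadherins at the cell surface (ENSMUSG00000034101, chromosome 2 from 84600071 to 84650765, minus strand), departed from the other catenins. Its level was 5033 normalized counts in the C57BL6 WT library, 5467 in C57BL6-BALB/c WT and 5599 in Cx30-/- vessels, so that the C57BL6-BALB/c WT library was not low. The log2 ratio of Cx30-/- to C57BL6-BALB/c WT was 0.03 (-0.02 to 0.09), and that to C57BL6 WT was 0.15 (0.10 to 0.21). A read-through gene, Gm28635, shares 70.4% of the bases of the Ctnnd1 transcript on the same strand, and their reads cannot be separated.

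Nectin2, a nectin of endothelial and other cells (ENSMUSG00000062300, chromosome 7 from 19716644 to 19750483, minus strand), had 308, 249.5 and 410.2 normalized counts in C57BL6 WT, C57BL6-BALB/c WT and Cx30-/- vessels, from 353, 231 and 391 counts. It was highest in Cx30-/- and lowest in C57BL6-BALB/c WT vessels, on few reads. The log2 ratio of Cx30-/- was 0.41 to C57BL6 WT (0.20 to 0.62) and 0.72 to C57BL6-BALB/c WT (0.48 to 0.96), and the width of these intervals reflects the low counts. It was the gene of the 10 with the highest ratio of Cx30-/- to C57BL6 WT.

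Afdn, encoding afadin, the actin-binding partner of nectins (ENSMUSG00000068036, chromosome 17 from 13760539 to 13906150, plus strand), was measured at 5272 normalized counts in the C57BL6 WT library, 5999 in C57BL6-BALB/c WT and 5213 in Cx30-/- vessels. It was the only one of the 10 genes with its highest level in C57BL6-BALB/c WT. Its log2 ratio of Cx30-/- to C57BL6-BALB/c WT was -0.20 (-0.26 to -0.15). That to C57BL6 WT was -0.02 (-0.07 to 0.04) and took the opposite sign, up to 0.02, when counts were scaled by the upper quartile or summed over transcript rows. Nectin2 and Afdn thus lay in opposite directions against C57BL6-BALB/c WT, with intervals that did not meet.

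Pecam1, an adhesion protein of endothelial cell borders that platelets and leukocytes also carry (ENSMUSG00000020717, chromosome 11 from 106654217 to 106750628, minus strand), reached 12730.4 normalized counts in the C57BL6 WT library, 7873 in C57BL6-BALB/c WT and 14040.5 in Cx30-/- vessels. The C57BL6-BALB/c WT library was low, in the manner of Cdh5. Cx30-/- was 1.78-fold of C57BL6-BALB/c WT (log2 ratio 0.83, 0.79 to 0.88), the highest ratio of the 10 genes in that comparison, and differed from C57BL6 WT by a log2 ratio of 0.14 (0.11 to 0.18). Platelet markers summed to 637, 495 and 1140.3 normalized counts in the same order of libraries, and 6 of 6 were higher in Cx30-/- than in both WT libraries. Neutrophil markers summed to 530.0, 501 and 1556, with 5 of 6 higher than in both. Of all genes, 37.1% were higher than in both. The part of platelets and neutrophils in the Pecam1 value was not tested.

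Cd34, a sialomucin of endothelial and progenitor cells (ENSMUSG00000016494, chromosome 1 from 194938819 to 194961279, plus strand), had 9420.1, 5717 and 9669 normalized counts in C57BL6 WT, C57BL6-BALB/c WT and Cx30-/- vessels. Its level in Cx30-/- vessels was not told apart from C57BL6 WT by read sampling (log2 ratio 0.04, -0.003 to 0.08) but was 1.69-fold of C57BL6-BALB/c WT (0.76, 0.71 to 0.81). It had the lowest ratio of C57BL6-BALB/c to C57BL6 WT of the 10 genes, -0.72 (-0.77 to -0.67).

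Each of the 10 genes had at least 50 normalized counts in 1 of the libraries compared, the minimum of the study, and none (0) reached its 2-fold threshold in any comparison. Between Cx30-/- and C57BL6 WT, 1.42% of all genes compared passed this threshold upward and 1.25% downward. Between Cx30-/- and C57BL6-BALB/c WT, these shares were 3.96% and 4.73%, and between C57BL6-BALB/c WT and C57BL6 WT they were 1.41% and 2.02%. In both comparisons of Cx30-/-, which share the Cx30-/- library, 1.42% of genes passed in the same direction. No member's interval reached 2-fold either.

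Against C57BL6 WT, the log2 ratios of Cx30-/- ran from -0.58 (Cdh2) to 0.41 (Nectin2), with a median of 0.14 and with -0.005 over all genes tested. The interval lay above 0 for 6 genes and below 0 for 1, Cdh2. Against C57BL6-BALB/c WT they ran from -0.47 (Cdh2) to 0.83 (Pecam1), with a median of 0.60 and with 0.004 over all genes. Here the interval lay above 0 for 7 genes and below 0 for 2, Cdh2 and Afdn. Intervals of read sampling are narrow for genes with many reads. The share of all genes whose interval left out 0 was not computed, so these counts are not set apart from those of other genes. At a lower threshold of 1.5-fold, 5 of 10 were higher in Cx30-/- than in C57BL6-BALB/c WT (Pecam1, Cdh5, Cd34, Nectin2 and Jup), against 14.1% of all genes.

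The WT libraries also differed from each other. C57BL6-BALB/c WT was below C57BL6 WT for 8 of the 10 genes, with a median log2 ratio of -0.36 (all genes 0.0004), and at least 1.5-fold below for 4 (Cd34, Pecam1, Cdh5 and Jup), against 8.04% of all genes. Cx30-/- was higher than both WT libraries for 8 of 10 genes, where 37.1% of all genes were, and lower than both for Cdh2 and Afdn, where 36.6% were. By read sampling, Cx30-/- was not told apart from C57BL6 WT for Jup, Cd34 and Afdn, or from C57BL6-BALB/c WT for Ctnnd1. Background and library cannot be told apart with 1 library each.

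**Figure D2:**
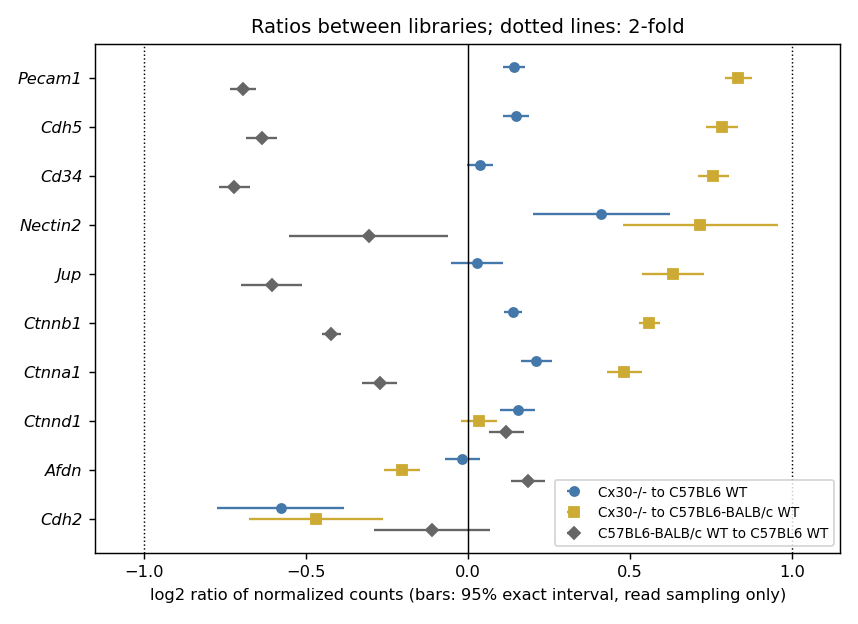
Log2 ratio of normalized counts (horizontal axis) of each gene (rows) for the comparisons of the libraries, with bars for the 95% interval of read sampling and lines at the 2-fold threshold. No point reaches 2-fold; the ratios of Cx30-/- to C57BL6 WT run from -0.58 to 0.41, and that of Afdn (-0.02) changes sign under other scalings.

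Markers of endothelial cells, none of them among the 10 genes, also differed between the libraries. All 10 endothelial markers, of which Esam, Emcn and Eng are also counted below among the endothelial contact proteins, were higher in Cx30-/- than in both WT libraries, with a median log2 ratio of 0.23 to C57BL6 WT and 0.87 to C57BL6-BALB/c WT, and 4 of them (Cldn5, Egfl7, Emcn and Slco1a4) were past 2-fold against C57BL6-BALB/c WT. Of all genes, 37.1% were higher than in both, and 3.96% were past 2-fold upward against C57BL6-BALB/c WT. The summed normalized counts of the endothelial markers were 119880, 70642 and 148823 in C57BL6 WT, C57BL6-BALB/c WT and Cx30-/- vessels. Mural markers summed to 100467, 92143 and 117304. Choroid plexus markers summed to 146089, 56895 and 76925, oligodendrocyte markers to 51136, 45369 and 40706, microglia markers to 4159.9, 3045 and 3546, and fibroblast markers to 9420.1, 7997 and 11060.2. The part of these cells in the values of the 10 genes was not tested.

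**Figure D3:**
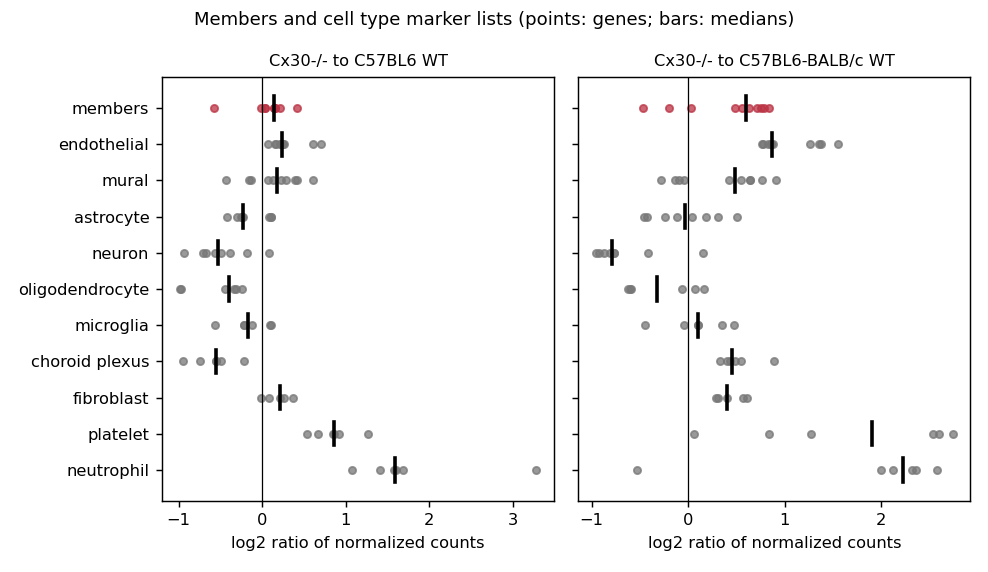
Log2 ratios of normalized counts of Cx30-/- to C57BL6 WT (left) and to C57BL6-BALB/c WT (right) on the horizontal axes, for the 10 genes (top row, members) and the listed marker genes of each cell type (other rows), with points for genes and bars for medians. Endothelial markers have a median of 0.23 to C57BL6 WT and 0.87 to C57BL6-BALB/c WT, and neuron markers of -0.53 and -0.79.

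Expressed as a percentage of the geometric mean per kilobase of the 10 endothelial markers, Cdh5 was at 75.9% in C57BL6 WT, 82.7% in C57BL6-BALB/c WT and 68.8% in Cx30-/- vessels. Pecam1 was at 126%, 132% and 114%, and Cd34 at 134%, 138% and 113%. On this scale none (0) of the 10 genes was higher in Cx30-/- than in both WT libraries, as against 2.38% of all genes, and the markers themselves differed by a mean log2 ratio of 0.29 to C57BL6 WT and 1.05 to C57BL6-BALB/c WT. Afdn was at 23.2%, 44.8% and 18.8%, Ctnnd1 at 27.0%, 49.6% and 24.5%, and Cdh2 at 3.73%, 5.85% and 2.04%. These 3 genes were more than 2-fold lower in Cx30-/- than in C57BL6-BALB/c WT relative to the markers, with log2 ratios of -1.25, -1.02 and -1.52. Of all genes, 53.6% were as well, so that 3 of 10 is below the share over all genes on this scale.

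**Figure D4:**
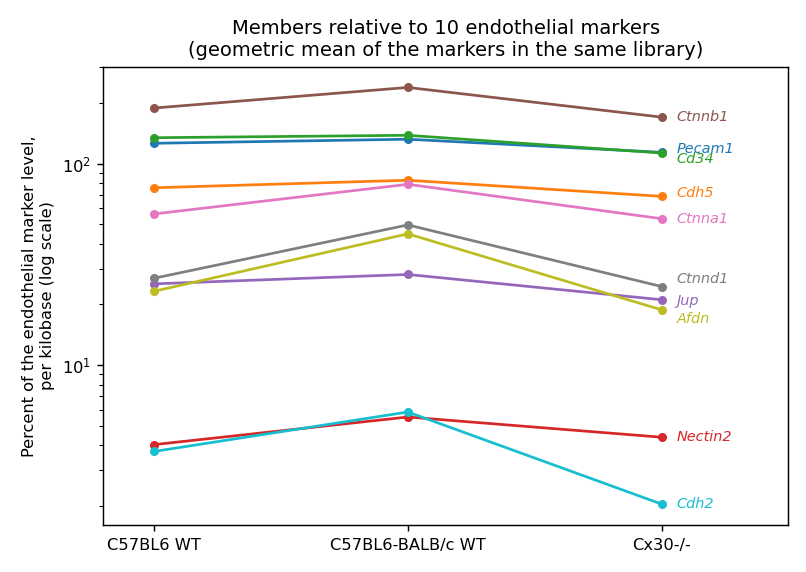
Level per kilobase of each gene as a percentage of the geometric mean of 10 endothelial markers in the same library (vertical axis, log scale) in the 3 libraries (horizontal axis), with 1 point for each library and lines that only join the points of a gene. Cdh5 stays between 68.8% and 82.7%, and Cdh2 runs from 2.04% to 5.85%.

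Among the 45 pairs of the 10 genes, Cdh5 and Pecam1 kept the most even ratio within libraries, with Cdh5 at 0.60, 0.63 and 0.60 of Pecam1 per kilobase. Cdh2 and Pecam1 were the least even, the highest of their ratios being 2.47-fold of the lowest. Of the 7 pairs whose ratio varied by more than 2-fold, 6 included Cdh2, and the other was Pecam1 with Afdn.

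Most of the 10 genes were listed with several transcripts. The rows of 1 gene share exons and reads and are no independent measurements. For Pecam1 the log2 ratios of Cx30-/- to C57BL6-BALB/c WT ran from 0.75 to 0.84 over 6 rows, and for Ctnnb1 from 0.45 to 0.64 over 10. Ctnnd1, with 30 rows, ran from -0.22 to 0.21. To C57BL6 WT, the log2 ratios of the 9 rows of Jup ran from -0.11 to 0.28 and thus also differed in sign. For Afdn a row of 3246 bases had a log2 ratio of Cx30-/- to C57BL6 WT of 0.32 (0.16 to 0.48), and a row of 2662 bases one of -0.10 (-0.17 to -0.04), so that the rows of this gene differed in sign.

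Of 65 other genes of adherens junctions and their control, 64 had a row and 63 passed the minimum in both comparisons of Cx30-/-. Against C57BL6 WT none (0) was past 2-fold, with a median log2 ratio of 0.06. Against C57BL6-BALB/c WT the median was 0.12, and 1 gene was past 2-fold in each direction. Emcn, an endothelial sialomucin, reached 2267 normalized counts in the C57BL6 WT library, 1026 in C57BL6-BALB/c WT and 2628 in Cx30-/- vessels (log2 ratio to the latter WT 1.36, 1.25 to 1.47). Radil, a Rap1 effector, had 739, 1065.0 and 529.8 (-1.01, -1.17 to -0.85). Cx30-/- was higher than both WT libraries for 29 of the 63 genes, where 37.1% of all genes were. It was lower than both for 19, where 36.6% of all genes were.

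By group, endothelial contact proteins had a median log2 ratio of 0.73 to C57BL6-BALB/c WT. Of these, 7 of 10 were higher in Cx30-/- than in both WT libraries, against 37.1% of all genes. The most abundant per kilobase was Podxl, a sialomucin of the endothelial surface, with 25433, 18048 and 28556 normalized counts. Phosphatases and kinases of the cadherin complex had a median of 0.10, with 4 of 8 higher than both. Among them Ptprb, encoding the phosphatase VE-PTP that binds VE-cadherin, had 9801 normalized counts in C57BL6-BALB/c WT and 16877 in Cx30-/- vessels (log2 ratio 0.78 to C57BL6-BALB/c WT and 0.60 to C57BL6 WT). Genes of the Rap1 and CCM pathway had a median of 0.36. The other catenin family genes had a median of -0.33, the actin linkers -0.04, the nectins 0.10 and the other cadherins 0.11. To C57BL6 WT, the medians of these groups were 0.11, 0.20, -0.14 and -0.30 in the same order, each of the opposite sign. For endothelial contact proteins, phosphatases and kinases, and the Rap1 and CCM pathway, the medians to C57BL6 WT were 0.23, 0.01 and 0.01.

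The most abundant gene per kilobase of the other groups described stayed below 2-fold. Pkp4, a catenin of the p120 family, had log2 ratios of Cx30-/- of 0.22 to C57BL6 WT and 0.35 to C57BL6-BALB/c WT. Actn4, an actin cross-linker, had 0.12 and -0.01, and Pvr, a nectin-like receptor, -0.16 and 0.32. The small GTPase Rap1b had 0.01 and 0.36, closer to C57BL6 WT than to C57BL6-BALB/c WT. Pcdhgc3, a protocadherin of the gamma cluster, had -0.23 and 0.11, which is uncertain because the genes of the cluster share exons.

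The genes with a pattern most like that of Cdh5 were sought by the distance between their pairs of log2 ratios of Cx30-/- to the WT libraries, among 4986 genes with at least 1000 normalized counts in every library. Dazap2 (0.0053), Ecm2 (0.0073), Lipa (0.0118), Capns1 (0.0167) and St6gal1 (0.0190) were the closest. Of the 10 genes, Pecam1 was at rank 16, Cd34 at rank 53, Jup at rank 155, Ctnnb1 at rank 226 and Ctnna1 at rank 374. Ctnnd1 was at rank 1741 and Afdn at rank 2883. Cdh2 and Nectin2 were under this minimum and were not ranked. The likeness rests on 3 libraries only.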

How the data were processed

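Vessels of mouse brains were sequenced as poly(A) RNA (strand non-specific TruSeq libraries, single reads of 50 bases), with 1 library per group. Per the methods, the authors removed reads of 11 bases or less or of mean quality of 12 or less, aligned with Bowtie 0.12.7 in Eoulsan 1.1.6, removed multi-matching reads and counted overlaps with exons. The deposited values are raw counts per transcript, with its length and the number of uncovered bases beside them. A column of fractions, which the authors had made by dividing the counts by a library total, was read only to recover that total. The sources give mm10, but only 1.57% of the transcripts start where GENCODE M21 places them, so positions here are those of GENCODE M21, found by transcript identifier. Of 82813 transcripts, 83.8% were named. Reads shared by transcripts of a gene were counted in each, and 1 row per gene was kept, that with the largest total count.

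Each library was scaled by its median ratio to the geometric mean of the libraries. Ratios of libraries were given exact conditional binomial 95% intervals (Clopper-Pearson, scipy 1.17.1), which cover counting error only. Genes with 50 normalized counts in at least 1 compared library were compared with a 2-fold threshold, after the study; no p-value was computed, and the study's own software for differential testing was not used. The procedure was run on simulated counts whose only spread was read sampling and whose planted changes were larger than 2-fold. That run does not bear on changes below 2-fold or on the spread between mice. The genes and lists were chosen with earlier results of these data known. Genes outside the 10 were named when nearest to Cdh5 or, in the junction lists, when past 2-fold or highest per kilobase in their list. The rule also covered the marker lists, which are given by their sums and medians, with only the endothelial markers past 2-fold named. The values of 1 of the gene lists are not reported here. Alternatives were TMM (edgeR 4.0.16, R 4.3.3), upper quartile, total count and pairwise scaling, other transcript rows, a pseudocount, other thresholds and scaling to endothelial markers.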

Additional observations from a re-analysis of the deposited data

How the results depend on the processing

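No paired analysis was possible because each group is 1 library. With no minimum count, the number of genes past 2-fold rose from 395 to 3813 (Cx30-/- to C57BL6 WT), from 1294 to 4961 (Cx30-/- to C57BL6-BALB/c WT) and from 508 to 3985 (C57BL6-BALB/c to C57BL6 WT). At 1.5-fold the numbers were 1593, 4310 and 2274, and of the 10 genes 0, 5 and 4 passed, against 0 at 2-fold. Scaled to the endothelial markers, the medians of the 10 genes were -0.15, -0.45 and 0.40, 3 genes (Cdh2, Afdn and Ctnnd1) were at least 2-fold lower against C57BL6-BALB/c WT, as were 53.6% of all genes, and 0 of 10, in place of 8, were higher in Cx30-/- than in both WT libraries. Under this scaling the medians of all genes were -0.30, -1.06 and 0.77. Under TMM, pairwise scaling, upper quartile, the longest row and a pseudocount of 1, all 30 ratios of the 10 genes stayed inside their intervals. Under total count 14 fell outside, by a shift of 0.06 at most, and under summed rows 2 did. Apart from endothelial scaling, the one change of sign was Afdn against C57BL6 WT. Depth limits Nectin2 and Cdh2 most, and without replicates biological spread is unknown.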
